A study of Arabidopsis thaliana with 6 samples.

Results

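The genes described here are the class III peroxidases of Arabidopsis thaliana, as far as gene titles identify them. They were taken as the probe sets whose gene symbol or title in the authors' deposited table holds the word peroxidase, leaving out titles with ascorbate, glutathione or catalase. This gave 69 of 22746 probe sets other than controls. Of these titles, 45 read "peroxidase, putative", 16 carry a peroxidase number, 3 read "peroxidase family protein", and the others are 2 cationic, 2 anionic and 1 peroxidase-related. The titles do not state the class, so membership rests on the wording. Of the 69 probe sets, 58 were paired with 1 gene each, 4 name several genes and 7 are given by probe set or by the number in their title. The 58 genes are distinct, and 57 are annotated as protein-coding and 1, AT1G33660, as a transcribed pseudogene.

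Class III peroxidases are plant enzymes secreted to the cell wall and the vacuole, where a haem group lets them oxidise phenolic compounds with hydrogen peroxide. In the wall they link lignin units, suberin phenolics and extensins, which stiffens it, and in another reaction they produce reactive oxygen species, which can loosen it. In imbibed seeds they are known for their part in the balance between stiffening and loosening in the tissues that enclose and drive the emerging root.

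RNA came from seeds of 2 genotypes, wild-type Columbia-0 (Col-0) and a mutant labelled mads-box, which the series description ties to AGAMOUS-LIKE 67 (AGL67), a MADS-box transcription factor. Every group shares the same treatment: 3 days in water at 4 °C in darkness, a step that breaks dormancy, then 3 hours in light at 22 °C with ABA at 5 µM. ABA, abscisic acid, is a plant hormone that keeps seeds from germinating. Each genotype has 3 arrays, labelled as biological replicates, and p-values measure only the spread between these samples. No untreated seeds are among them, so nothing here measures a response to ABA. The kind of mutation and the age of the seeds are not given in the sources used here.

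AGL67 read 8.79, 8.25 and 8.78 on the wild-type arrays and 4.15, 4.30 and 3.66 on the mutant arrays, on the log2 scale. The groups did not overlap, and the difference was -4.57 (SE 0.21, limma adjusted p = 0.000887). Where the mutation lies relative to these probes is not given in the sources used here. As a check of the tissue, probe sets titled as seed storage proteins had means of 9.33 to 13.71 over the 6 arrays. Among them was the cruciferin gene CRA1, an embryo marker, with a mean of 13.54. The other listed embryo markers, and those for endosperm and for seedling leaf, were not paired with a probe set by gene name. Those for endosperm and for seedling leaf are not analysed here. The third wild-type array stood apart from the rest. Across probe sets, which are not independent replicates, its correlations with the first and second wild-type arrays were 0.980 and 0.983, against 0.994 between those arrays. Its median was 3.80, against 3.97 to 4.00 on the other 5 arrays.

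The comparison asks which peroxidase transcripts differ in seeds that lack normal AGL67 expression. Of the 69 peroxidase probe sets, 3 rose in the mutant, those of AT5G39580, AT2G22420 (titled peroxidase 17, PER17) and AT4G21960 (titled peroxidase 42, PER42, and named PRXR1 in RefSeq), and 0 fell. The test was limma over all 22746 probe sets with p-values adjusted by the Benjamini-Hochberg method, at a threshold of 0.05. Across the whole array 2.70% of probe sets passed, 1.93% as higher and 0.778% as lower in the mutant. Of the 615 calls 71.2% were thus higher, and after renewed quantile normalization 56.9% of 1042 were, with the same 3 members higher and 0 lower. The other 66 members did not pass. An unadjusted p under 0.05 was reached by 9 members, and by 16.4% of all probe sets.

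The log2 differences of the 69 members ran from -0.51 to 1.82 with a median of -0.03, and the median over all probe sets was 0.02. Of the members 27 had positive and 42 negative differences, against 12484 and 10262 of all probe sets. In size 46 of the members were under 0.2, 18 lay between 0.2 and 0.5 and 5 reached 0.5 or more. The mutant arrays were all above the wild-type arrays for 9 members and all below for 8, while 14.9% of all probe sets had the mutant arrays all above and 9.16% all below. Seed storage transcripts moved with the genotypes alongside these counts. Of the 7 probe sets with such titles all had negative differences (median -0.45), 2 fell, and the mutant arrays were all below the wild-type arrays for 5. Those that fell were 253902_at, titled as a 2S albumin, with a difference of -1.91 (limma adjusted p = 0.0130, passing in 3 of the 6 fits that leave out 1 array), and 265095_at, titled as the 12S protein CRB, with a difference of -0.64 (limma adjusted p = 0.0432, passing in 1 of them). CRA1 differed by -0.26 (limma adjusted p = 0.245). The log2 of their summed level was 15.50 to 15.63 in the wild type and 15.07 to 15.26 in the mutant, and their part in the peroxidase differences was not tested. The seeds were measured whole, so fewer cells of a type and less RNA per cell cannot be told apart.

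**Figure D1:**
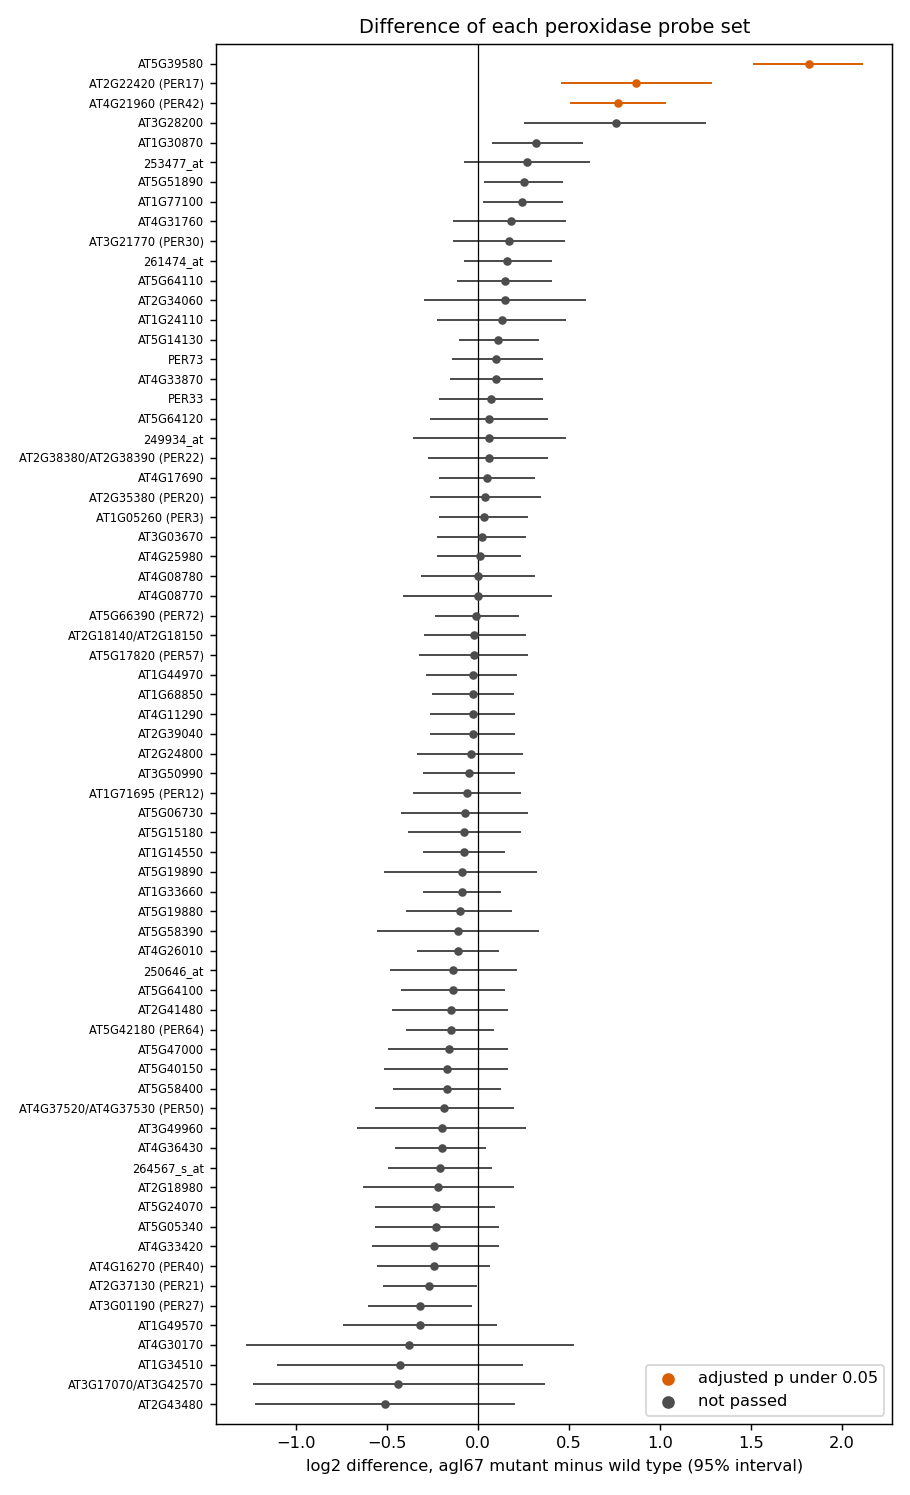
Each of the 69 peroxidase probe sets is a point at its log2 difference, mutant minus wild type (x axis), with its 95% interval from limma as a line, ordered by size. The 3 members with an adjusted p under 0.05 are drawn in orange at 0.77, 0.87 and 1.82, and most other intervals cross 0.

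AT5G39580, titled "peroxidase, putative", had the largest difference among the members. It read 3.57, 3.72 and 3.89 on the wild-type arrays and 5.56, 5.39 and 5.69 on the mutant arrays. Every mutant array was above every wild-type array, with a gap of 1.50 between the groups. The means were 3.73 ± 0.16 and 5.54 ± 0.15 (SD, n = 3 each), a difference of 1.82 (SE 0.13, 95% interval 1.52 to 2.11, limma adjusted p = 0.00274) or 3.52-fold. The wild-type mean lay below 3.94, the median level over all probe sets. Whether it was above background was not tested, so the fold rests on a low wild-type reading. In an exact two-sided permutation test over the 6 arrays p was 0.1, the smallest that 3 arrays against 3 can give. The difference passed in each of the 6 fits that leave out 1 array, where it ran from 1.74 to 1.90 with limma adjusted p from 0.000162 to 0.0290. The authors' deposited table gives a log2 ratio of 1.90 with a false discovery rate of 0.00383.

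PER42 is the member with the highest mean reading over the 6 arrays, 6.93. It read 6.47, 6.67 and 6.49 in the wild type and 7.44, 7.22 and 7.27 in the mutant. The groups were apart by 0.54, and each varied little around its mean (6.54 ± 0.11 and 7.31 ± 0.12, SD, n = 3 each). The difference was 0.77 (SE 0.11, 95% interval 0.51 to 1.03, limma adjusted p = 0.0176), or 1.70-fold. It passed without any single wild-type array but not without the first, the second or the third mutant array, where it was 0.70, 0.81 and 0.79 with limma adjusted p of 0.0977, 0.0837 and 0.102. With the replicate number as a block, limma gave an adjusted p of 0.0503, and the labels do not say whether the numbers pair the samples.

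PER17 takes part in the formation of lignified tissue, and its gene is a known direct target of another MADS-box factor, AGL15. It read 3.77, 3.79 and 3.32 in the wild type and 4.54, 4.71 and 4.25 in the mutant. The groups were apart by 0.45, and the third array was the lowest of each group. The difference was 0.87 (SE 0.17, 95% interval 0.46 to 1.28), or 1.83-fold, with a limma adjusted p of 0.0486, just under the threshold. Here too the wild-type mean, 3.63, lay below the median level of 3.94 over all probe sets and was not tested against background. When arrays were left out singly, the difference passed once, with the third wild-type array removed (0.72, limma adjusted p = 0.0187). It did not pass without the first or second wild-type array (0.94 and 0.95, limma adjusted p = 0.0634 and 0.0963) or without the first, the second or the third mutant array (0.85, 0.76 and 1.00, limma adjusted p = 0.189, 0.216 and 0.112). The authors' deposited table gives a log2 ratio of 0.86 with a false discovery rate of 0.0571, above 0.05.

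Next above the threshold was AT3G28200, another gene titled "peroxidase, putative". Its readings were 5.16, 4.61 and 4.43 in the wild type and 5.36, 5.78 and 5.33 in the mutant. The groups did not overlap, but the wild-type arrays were spread over a wider range than the gap of 0.17 between the groups. The difference was 0.76 (SE 0.21, 95% interval 0.26 to 1.25, limma adjusted p = 0.130), close in size to that of PER42 with a larger error. Without the first wild-type array, the highest of its group, it was 0.97 and passed (limma adjusted p = 0.0429), and it did so in no other fit that leaves out 1 array.

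**Figure D2:**
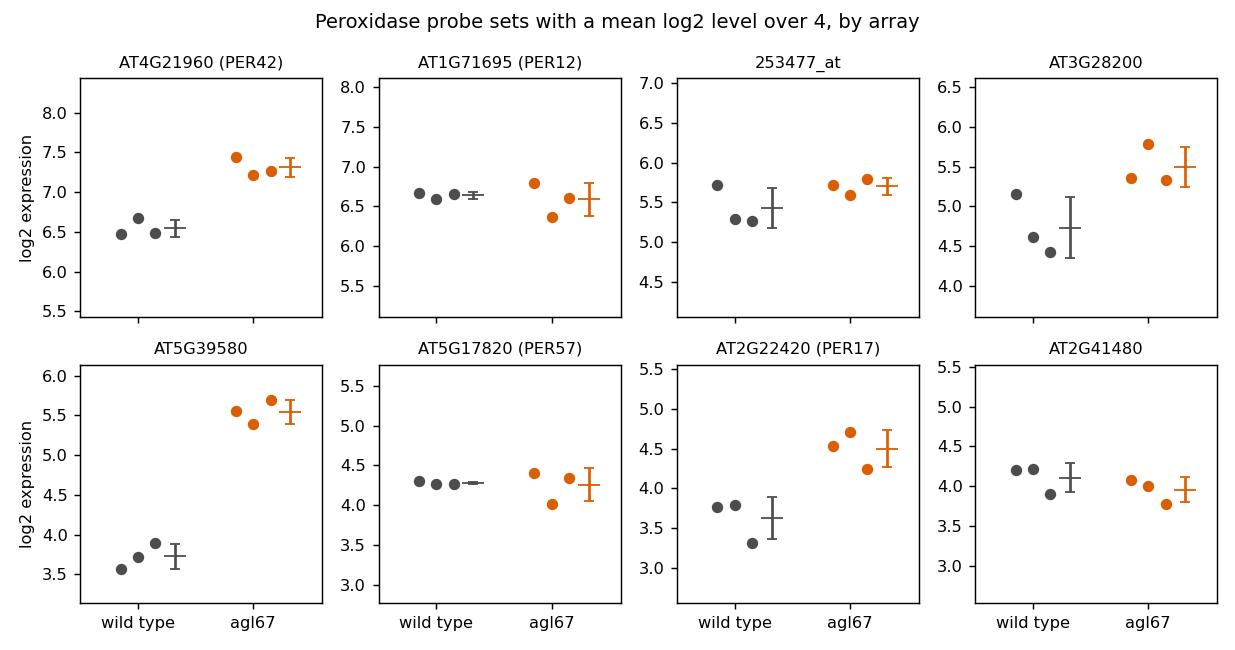
Log2 expression on each array (y axis, one panel per probe set) for the 8 peroxidase probe sets with a mean over 4, wild type in grey and mutant in orange, with mean and SD (n = 3 each) at the side. The panels share a span but not a position on the axis, and readings of different probe sets are not comparable as transcript amounts. The groups lie apart, with the mutant above, for AT4G21960, AT3G28200, AT5G39580 and AT2G22420, and overlap in the other 4 panels. Of all probe sets 14.9% had the mutant arrays all above and 9.16% all below. AT5G39580 and AT2G22420 had wild-type means under 4 (3.73 and 3.63), so their high mutant values brought them into these panels. No reading is drawn from the count of panels.

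The remaining members with a mean over 4 did not part the genotypes. PER12 (AT1G71695) read 6.67, 6.59 and 6.66 in the wild type and 6.79, 6.37 and 6.60 in the mutant. The groups overlapped, and the difference was -0.06 with a 95% interval of -0.35 to 0.23 (limma adjusted p = 0.856), which leaves out a change as large as that of PER42. Probe set 253477_at, a peroxidase with no gene paired here, read 5.72, 5.29 and 5.27 against 5.72, 5.59 and 5.80, a difference of 0.27 (95% interval -0.07 to 0.61, limma adjusted p = 0.406). PER57 (AT5G17820) read 4.30, 4.27 and 4.27 against 4.41, 4.02 and 4.34, a difference of -0.02 (95% interval -0.32 to 0.27, limma adjusted p = 0.946). For both the groups overlapped, as they did for AT2G41480 (-0.15, limma adjusted p = 0.626, named after its values were seen), and for PER57 the wild-type arrays all lay inside the range of the mutant arrays. PER57 and AT2G41480 had means of 4.27 and 4.03 over the 6 arrays, close to the median of 3.94 over all probe sets.

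Most peroxidase probe sets gave low readings. The mean over the 6 arrays was under 4 for 61 members, against a median of 3.94 over all probe sets, and 55 of the members were among the dimmest 40%. No detection calls were used, so whether these were above background was not tested, and for a probe set at background a difference between the genotypes would not be seen. Of the 61 members with a mean of 4 or less, 0 passed, and of all probe sets with such a mean 0.381% did. The 3 that passed were among the 8 members with a mean over 4, where 5.1% of all probe sets passed. A mean over both genotypes is itself raised by high mutant values, so no reading is drawn from that split. Depth of signal thus limits what can be said of most of the family.

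**Figure D3:**
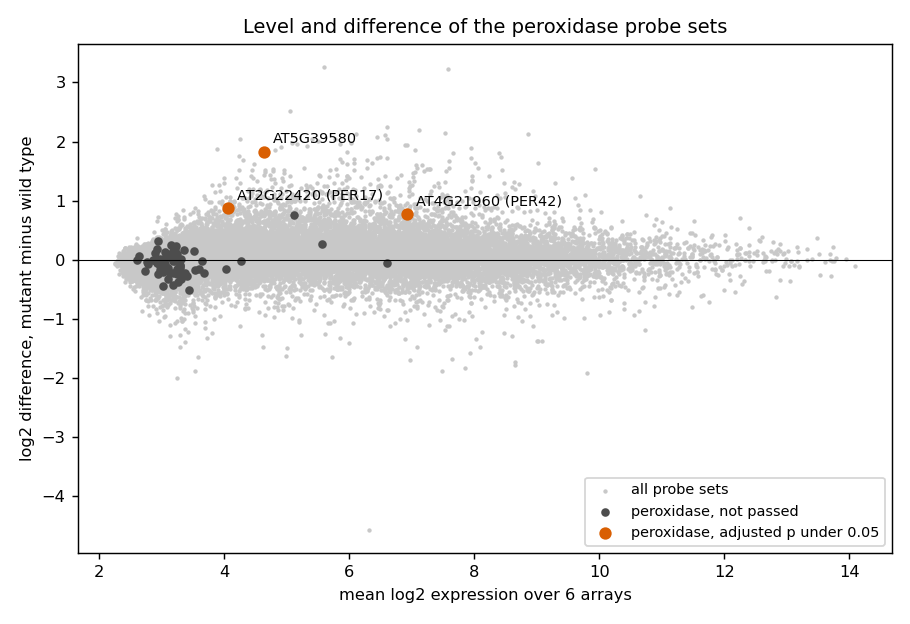
Each point is a probe set at its mean log2 expression over the 6 arrays (x axis) and its log2 difference, mutant minus wild type (y axis), with all probe sets in light grey. Of the 69 peroxidase probe sets (dark), 61 lie at a mean under 4 and within about the scatter of all probe sets there, and the 3 that passed (orange) lie above 0.

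Among low-reading members, 5 further genes had an unadjusted p under 0.05 in limma but did not pass. AT1G30870 (2.76, 2.89 and 2.71 against 2.99, 3.15 and 3.19) differed by 0.32 with a limma adjusted p of 0.186. AT5G51890 and AT1G77100 differed by 0.25 and 0.24 (limma adjusted p = 0.226 and 0.249), with all mutant arrays above the wild-type arrays. The opposite order was seen for PER27 (AT3G01190), at -0.32, and PER21 (AT2G37130), at -0.27 (limma adjusted p = 0.242 and 0.285). For AT4G36430 the mutant arrays were also all lower, and the difference was -0.20 (limma adjusted p = 0.398). Gaps between the groups were 0.03 to 0.20 for these 6 genes.

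Several members have known roles in other tissues, and those that follow were picked for these roles after their values were seen. PER64 (AT5G42180) and PER72 (AT5G66390) take part in lignification, PER64 in the Casparian strip of the root endodermis. Their differences were -0.15 and -0.01, with 95% intervals of -0.39 to 0.08 and -0.23 to 0.22. PRX52 (AT5G05340), which also acts in lignin formation, read 3.38, 3.30 and 3.80 against 3.26, 3.23 and 3.32, overlapping groups with a difference of -0.23 (limma adjusted p = 0.496). A probe set titled PER33, an enzyme of the oxidative burst in defence, was not paired with a gene here and may not read that gene alone. It differed by 0.07 (limma adjusted p = 0.826) at a mean of 2.64. PER40 (AT4G16270), known to cross-link extensins in the anther, differed by -0.24 with the mutant arrays lower by a gap of 0.01 (limma adjusted p = 0.410). RCI3 (AT1G05260), a peroxidase induced by cold, differed by 0.03 (95% interval -0.21 to 0.27) in these seeds, which had all been kept cold. None of these 6 passed, and all 6 had means under 4.

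Some members are neighbours on a chromosome. By the order of protein-coding genes in RefSeq (assembly TAIR10.1), 9 members form 5 consecutive pairs, and 0 of the 9 passed. AT4G08770 and AT4G08780 differed by -0.00 and 0.00, AT5G19880 and AT5G19890 by -0.10 and -0.09, and AT5G58390 and AT5G58400 by -0.11 and -0.17. In the run AT5G64100, AT5G64110 and AT5G64120 the differences were -0.14, 0.15 and 0.06. Similar neighbours can share probe signal. The 4 probe sets that name several genes, not all of them neighbours, cannot separate those genes, for example AT4G37520 from AT4G37530 (PER50).

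The negative end of the members' range rested on the third wild-type array. AT2G43480 read 3.37, 3.24 and 4.49 in the wild type and 3.16, 3.21 and 3.19 in the mutant, a difference of -0.51 (limma adjusted p = 0.459) that became -0.11 without that array. AT1G34510 read 3.16, 2.89 and 4.12 against 3.01, 2.96 and 2.92, and its difference went from -0.43 to -0.06. The probe set shared by AT3G17070 and AT3G42570 read 2.74, 2.90 and 4.11 against 3.01, 2.58 and 2.85, and went from -0.44 to -0.01. In each of these the third wild-type array alone was high, and the other wild-type arrays lay among or close to the mutant arrays. AT4G30170, at 2.84, 3.07 and 4.45 against 3.22, 2.92 and 3.09, turned from -0.38 to 0.12.

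This array was the highest of the 6 for 25 members (36.2%) and for 16.9% of all probe sets, and the lowest for 14 members (20.3%) and for 44.3% of all probe sets. Among probe sets with a mean of 4 or less it was highest for 25 of 61 members (41%) and for 25.5% of all. It exceeded the mean of the other wild-type arrays by over 0.5 for 9 members and fell short by as much for 0. Besides the 4 probe sets above these were AT3G49960 (0.64), AT5G19890 (0.62), 249934_at (0.62), AT4G08770 (0.54) and PER50 (0.52), a list chosen after its values were seen. Without this array 29 members were positive and 40 negative, and 12 changed sign. The counts over 0.5 and of changed signs were not taken over all probe sets, so no reading is drawn from them. AT5G39580 was 1.90 and PER42 0.74 without the third wild-type array, and both passed.

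**Figure D4:**
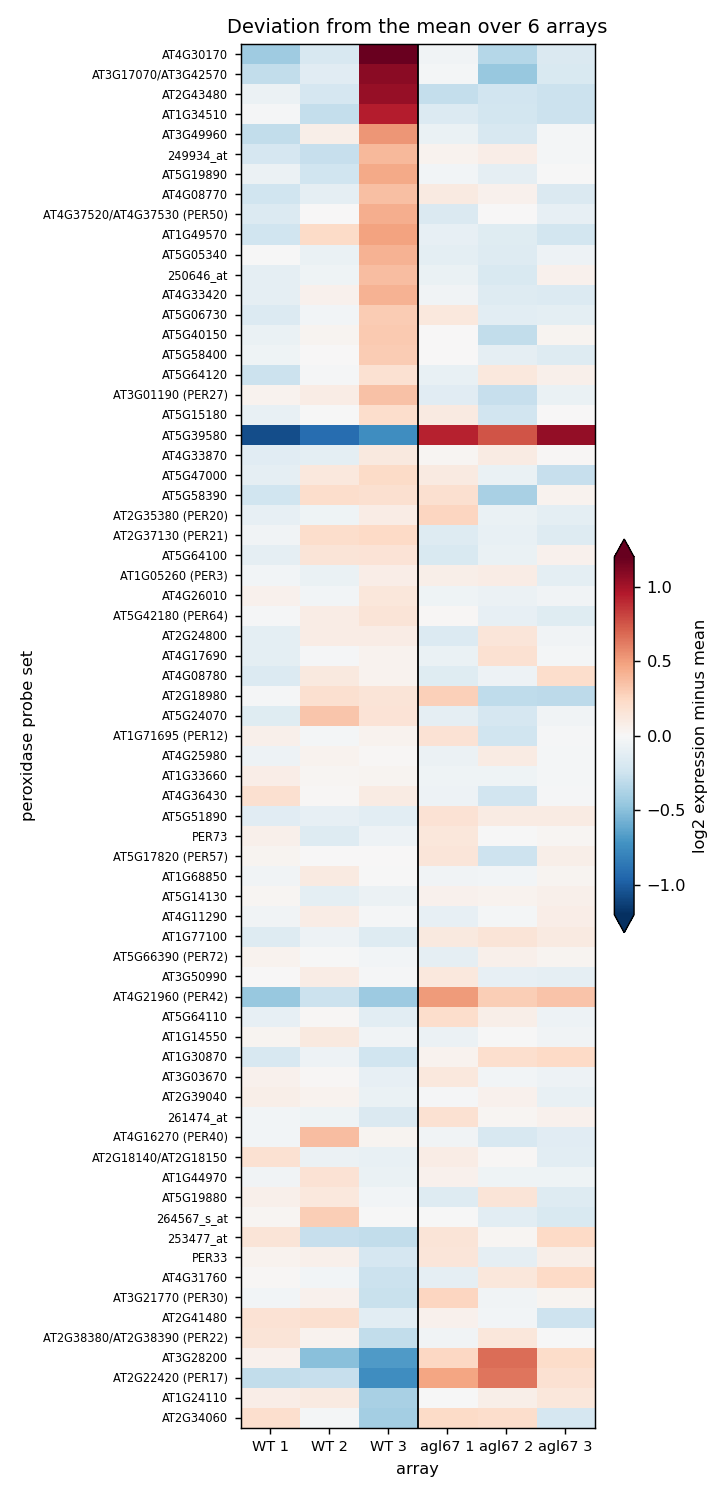
Each row is a peroxidase probe set and each column an array, coloured by the log2 expression minus that row's mean over the 6 arrays, with colours ending at the limits of the bar. Rows are ordered by how far the third wild-type array lies above or below the other wild-type arrays. That array is high alone in the top rows, while AT5G39580 and AT4G21960 (PER42) differ between all mutant and all wild-type arrays.

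Genes that act beside these peroxidases were taken from lists of their pathways, of which 26 of 61 genes were paired with a probe set. NADPH oxidases make superoxide, a source of the hydrogen peroxide that these peroxidases use. Of 8 measured, 0 passed, where 2.70% of all probe sets did, and the median difference was -0.10. RBOHD, the main oxidase of stress and defence responses, read 10.77, 10.96 and 10.96 in the wild type and 10.20, 10.48 and 10.40 in the mutant. The mutant arrays were all lower, and the difference was -0.54 (SE 0.12) with a limma adjusted p of 0.0608. Without the third wild-type array the difference was -0.51 and passed (limma adjusted p = 0.0408). It passed in no other fit that leaves out 1 array, with limma adjusted p up to 0.228.

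Monolignol synthesis supplies the phenolic units that peroxidases couple into lignin. Of 12 measured genes 1 rose and 0 fell, with a median of 0.05, while 1.93% of all probe sets were called higher and 0.778% lower. The one that rose was OMT1, an O-methyltransferase of lignin units that also methylates flavonols, with 4.54, 4.21 and 4.63 in the wild type and 5.48, 5.40 and 5.35 in the mutant. The groups were apart by 0.72, and the difference was 0.95 (SE 0.13, limma adjusted p = 0.0145). It passed without any single wild-type array, and without a single mutant array it did not, with limma adjusted p up to 0.0914. The other 11, did not pass, with PAL1 at -0.01, C4H at 0.21 and HCT at -0.31 as examples picked after their values were seen.

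The other listed genes were few. The laccase LAC16, the extensins EXT2 and LRX1, and the suberin hydroxylase CYP86A1 differed by -0.36, -0.17, -0.27 and 0.13 and did not pass. The peroxidase repressor UPB1, a root transcription factor, and MYB36, a regulator of the Casparian strip, differed by -0.03 and -0.12 and did not pass either. Wider groups were taken from gene titles, set up after the files were seen. They gave 1 of 16 laccase probe sets higher and 0 lower (median -0.13), and 0 of 33 extensin probe sets in either direction (median -0.11). Over all probe sets 1.93% were called higher and 0.778% lower. The mutant arrays were all below the wild-type arrays for 3 extensin probe sets and all above for 0. These were 255139_s_at, AT2G15880 and 259553_x_at, at -1.65, -1.65 and -1.28 (limma adjusted p = 0.302, 0.116 and 0.276). Their wild-type arrays read 3.38 to 6.32, 5.38 to 7.32 and 4.19 to 6.54. Without the third wild-type array the differences were -0.70, -1.26 and -0.63, and only 255139_s_at passed (limma adjusted p = 0.00679). AT2G15880 passed in 1 other fit that leaves out 1 array. The laccase probe set, 251124_s_at, which names several genes, read 4.15, 3.96 and 4.00 against 5.34, 5.61 and 5.65. Its groups were apart by 1.19, with a difference of 1.50 (SE 0.12, limma adjusted p = 0.00342) that passed in each of the 6 fits that leave out 1 array.

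**Figure D5:**
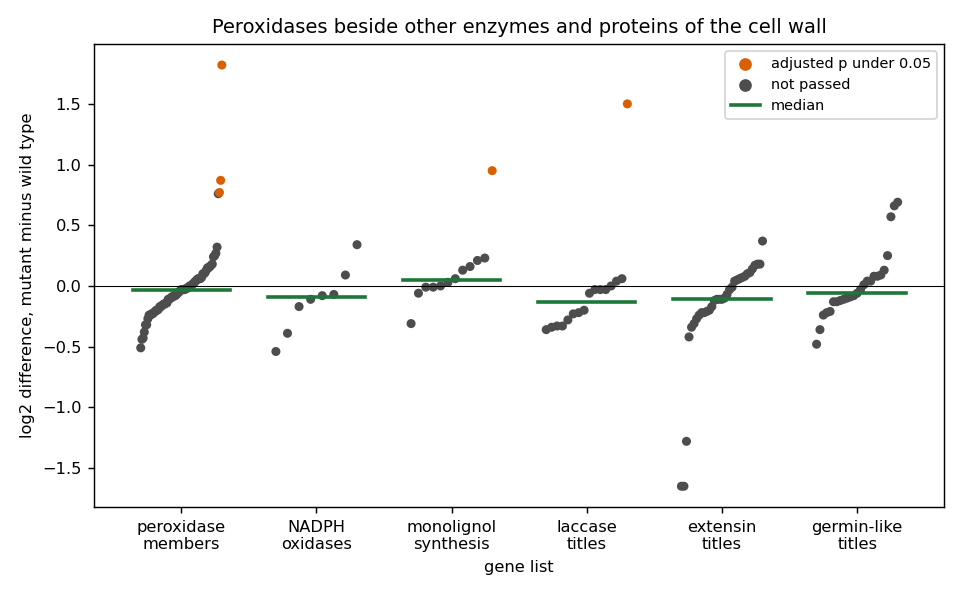
Log2 differences, mutant minus wild type (y axis), of the peroxidase probe sets and of 5 other groups, each point a probe set in order of size, with the median as a green line. Probe sets with an adjusted p under 0.05 are orange, namely 3 peroxidases, OMT1 and 1 laccase probe set, and the medians lie between -0.13 and 0.05.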

How the data were processed

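Total RNA from 6 seed samples was hybridised to Affymetrix arrays. The authors' deposited value table holds log2 expression per probe set and array, made with RMA per the submitters' processing notes, which also name limma, both without versions. A deposited table of the comparison gives log2 ratios, p-values and false discovery rates, per the file headers. Gene titles and a separate set of calls were taken from it, and its 6 columns of values per sample were not used. The values were not scaled further, and 64 control probe sets were left out. Genes were named through the platform's gene table, and 2 members and some listed genes through names in RefSeq (TAIR10.1). The model, mutant minus wild type with genotype as its only term, used lmFit and eBayes of limma 3.58.1 (R 4.3.3), with Benjamini-Hochberg adjustment over 22746 probe sets and a threshold of 0.05. The fit was tested on simulated data.

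The members and lists were chosen with earlier results of these data known. Members named are those that passed, the 8 next by p-value, the 6 next by size of difference, the 6 with the highest mean, and those next to the threshold, and of each list those that passed or else that with the smallest p. Others, namely neighbouring genes, further members of lists or title groups, and members with known roles or low or high readings, were chosen after their values were seen. Alternatives were a replicate block, leaving out each array, an intensity trend, robust prior variance, array weights, renewed quantile normalization, median centring, leaving out the dimmest 40% of probe sets, and the authors' table. The number of arrays limits the precision. Groups of 3 arrays were not tested for outliers.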

Additional observations from a re-analysis of the deposited data

How the results depend on the processing

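AT5G39580 passed under every alternative run, at 1.67 to 1.90, as did AGL67, at -5.09 to -4.39. The count of peroxidase probe sets lower in the mutant was 0 under all of them, and the median over members ran from -0.10 to -0.02 (SD between arrays 0.07). The count higher in the mutant, 3, was 1 to 3 when an array was left out, with 1 without any of the mutant arrays. Probe sets called over the whole array, 615, numbered 1490 with array weights, 1042 after renewed quantile normalization, and 86 to 1530 when an array was left out. The listed genes called, 1, numbered 2 with array weights, with an intensity trend and with median centring, and 0 to 2 when an array was left out. PER17 lost its call with robust prior variance (limma adjusted p = 0.0520) and in the authors' deposited table. Of the values of named members other than AT5G39580 under these alternatives, 199 kept their direction and side of the threshold. The 11 that no longer passed were all values of PER17 or PER42, including the PER17 losses just given. Of the rest 1 newly passed and 4 changed sign without passing. Those 4 were AT4G30170 without the third wild-type array (0.12), PER12 and PER57 without the second mutant array (0.05 and 0.09), and PER57 with array weights (0.00). With 1 array left out their differences ran from -0.68 to 0.12, -0.16 to 0.05 and -0.10 to 0.09, in that order of genes. Members among the dimmest 40% have no value where those were left out. The cause of these differences was not tested. Deviations of same-numbered arrays from their group means correlated at -0.158, 0.145 and 0.217, and those of differently numbered arrays at -0.335 to 0.337. Deviations within a group of 3 arrays are tied to each other, so these values cannot settle whether the replicate numbers pair the samples. A fit with the replicate block called 443 probe sets and 2 members, with PER42 at an adjusted p of 0.0503 in limma.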

Other observations

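Peroxidases outside class III, taken by their titles after the files were seen, also include probe sets that rose. Of 15 probe sets with ascorbate, glutathione or catalase in a peroxidase title, 3 rose in the mutant, 0 fell, and the median difference was 0.05. Of all probe sets 1.93% were called higher and 0.778% lower. A glutathione peroxidase, an enzyme that reduces hydroperoxides, was read by 263426_at at 6.79, 6.83 and 6.78 in the wild type and 8.25, 8.29 and 8.37 in the mutant. The arrays of each group lay close together and far from the other group, with a difference of 1.50 (SE 0.09, limma adjusted p = 0.00169) that passed in each of the 6 fits that leave out 1 array. The ascorbate peroxidases APX1, cytosolic by its title, and APX3 rose by 0.59 and 0.57 (limma adjusted p = 0.0396 and 0.0355), and each passed in 1 of those 6 fits, which leaves out the third wild-type array (limma adjusted p = 0.0186 and 0.0148). The 25 germin-like probe sets stand for cell wall proteins, some of which make hydrogen peroxide. Of these 0 passed, and the median was -0.06. An unadjusted p under 0.05 in limma was reached by 4 of them, and by 16.4% of all probe sets.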
